A study of Homo sapiens with 9 samples.

Results

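The subunits of oxidative phosphorylation were followed in MG-63, an established osteosarcoma line that serves as a stand-in for bone-forming cells, on 3 titanium surfaces. Members were taken by gene name: the NDUF, SDH, UQCR, COX and ATP5 subunit families of the nucleus and the MT-ND, MT-CO, MT-CY and MT-ATP genes of the mitochondrial chromosome, without pseudogenes. This rule found 102 of the 36385 rows in the deposited table, of which 94 were coding genes, 81 nuclear and 13 mitochondrial, 6 were antisense or divergent transcripts and 2 were read-through transcripts. The 3 groups were boronized Ti6Al4V/HA (HA coating, 3 libraries), Ti6Al4V+TiB2 (TiB2, 3 libraries) and uncoated Ti6Al4V, a titanium alloy for implants (bare alloy, 3 libraries). All cells had spent 7 days in an osteogenic medium that held dexamethasone (100 nM), ascorbic acid (50 µg/mL) and beta-glycerophosphate (10 mM) with 10% fetal bovine serum, and all carried the same batch label. The labels mark the TiB2 libraries as left out of the submitters' final analysis, and their treatment text does not describe that surface. They do not say whether the libraries of a group came from separate cultures, so the spread between libraries, and every p-value, may be technical.

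Oxidative phosphorylation makes most of the ATP of a resting cell. Complexes I (NADH dehydrogenase) and II (succinate dehydrogenase) pass electrons to ubiquinone, complex III passes them on to cytochrome c, complex IV passes them to oxygen, and complex V (ATP synthase) uses the proton gradient so built to make ATP. A small set of core subunits of complexes I, III, IV and V is encoded by mitochondrial DNA and transcribed inside the organelle as long precursors, while all other subunits are nuclear genes whose proteins are imported, so the complexes need products of both genomes.

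Libraries held 58464306 to 72542556 counts. Some stood apart from their own group. Ribosomal RNA rows took 7.69% of the counts of bare alloy replicate 1 and 0.853% to 1.65% of the other 8 libraries. A smooth trend with gene length and GC content took up 14.2% of how the genes of HA replicate 2 departed from the mean of all libraries, 6.60% for HA replicate 3 and at most 3.74% for the rest. By the median over genes the HA libraries also differed more among themselves than the others. Their squared difference was 59.6 to 94.4 times counting noise, against 14.2 to 17.1 times among TiB2 libraries and 13.4 to 18.9 times among bare alloy libraries. By the mean over genes the pairs with bare alloy replicate 1 stood at 221 and 252 times, near the HA pairs at 241 to 405 times. Bare alloy replicates 2 and 3 stood at 32.3 times by that mean, and the TiB2 pairs at 41.5 to 60.6 times. The T cell markers CD3D, CD3E, CD3G, LCK and CD2 had no count in the 3 HA libraries or in bare alloy replicate 1, and all but CD2 were found at 0.0656 to 0.905 FPKM in at least 4 of the other 5 libraries, so bare alloy replicate 1 sided with the HA libraries in this respect. Markers of the line were present in every library but differed between surfaces, and not all in the same direction. ALPL lay at 2.45 to 5.26 FPKM on HA, 3.58 to 5.21 FPKM on TiB2 and 0.354 to 0.708 FPKM on bare alloy. RUNX2 was low, at 0.223 to 0.487 FPKM on HA, 0.394 to 0.494 FPKM on TiB2 and 0.245 to 0.283 FPKM on bare alloy. VIM, SPARC and the collagen genes were lower in every coated library than in every bare alloy library. COL1A1 lay at 70.9 to 203 FPKM on HA, 131 to 151 FPKM on TiB2 and 271 to 350 FPKM on bare alloy, and COL1A2 at 46.4 to 106 FPKM on HA, 85.9 to 101 FPKM on TiB2 and 301 to 328 FPKM on bare alloy. Of the endothelial markers CDH5 was likewise higher on bare alloy, at 3.26 to 4.23 FPKM. It lay at 0.177 to 0.562 FPKM on HA and 0.440 to 0.594 FPKM on TiB2. PECAM1 was instead highest on HA, at 0.928 to 1.22 FPKM, with 0.724 to 0.863 FPKM on TiB2 and 0.727 to 0.824 FPKM on bare alloy. VWF stayed at or under 0.0344 FPKM in every library. The part of these shifts in the results on the subunits was not tested. The labels call the line epithelial-like, and of the epithelial markers EPCAM (0.193 to 0.472 FPKM) and CDH1 (0.0143 to 0.0834 FPKM) were low while KRT19 lay at 2.68 to 4.82 FPKM. Of the macrophage markers CD68 lay at 22.4 to 35.7 FPKM and CD14 at 3.57 to 8.56 FPKM, while CSF1R and PTPRC stayed at or under 0.107 FPKM. Of the muscle markers 5 of 6 stayed at or under 0.119 FPKM.

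The mitochondrial and nuclear members had different profiles over the 9 libraries. Levels are given as deposited FPKM, which divides counts by gene length and library total. The 13 mitochondrial genes took 5.03%, 5.35% and 3.85% of all counts in the HA libraries, 5.47%, 5.17% and 5.35% in the TiB2 libraries, and 3.75%, 3.58% and 3.50% in the bare alloy libraries. Every coated library was above every bare alloy library in this share, but for HA replicate 3 this depended on the ribosomal RNA of bare alloy replicate 1. With ribosomal RNA rows taken out of the total, the share was 3.90% in HA replicate 3 and 4.06% in bare alloy replicate 1, and the other 5 coated libraries stayed above all bare alloy libraries. The nuclear members took 0.528%, 0.672% and 0.836% in the HA libraries, 0.553%, 0.496% and 0.531% in the TiB2 libraries, and 0.456%, 0.486% and 0.451% in the bare alloy libraries. HA replicate 3 had the highest nuclear share and the lowest mitochondrial share of the 6 coated libraries. In bulk RNA, more transcript per cell and a larger share of cells that carry it cannot be told apart.

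Taken as the median over members of the level in a library divided by the bare alloy mean (CPM after TMM scaling), the nuclear members stood at 1.04, 1.36 and 2.1 times in the HA libraries, at 1.11, 0.951 and 1.10 times in the TiB2 libraries and at 1.06, 1.01 and 0.939 times in the bare alloy libraries. The mitochondrial members stood at 1.39, 1.51 and 1.15 times in the HA libraries, at 1.55, 1.42 and 1.42 times in the TiB2 libraries and at 1.08, 0.972 and 0.946 times in the bare alloy libraries. The nuclear values of the HA libraries thus ran over a wider range than all other libraries together. Of the 79 nuclear members with a mean of at least 1 FPKM, which are also those tested, 76 had their highest CPM of all 9 libraries in HA replicate 3. How many of all genes did so is not given.

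**Figure D1:**
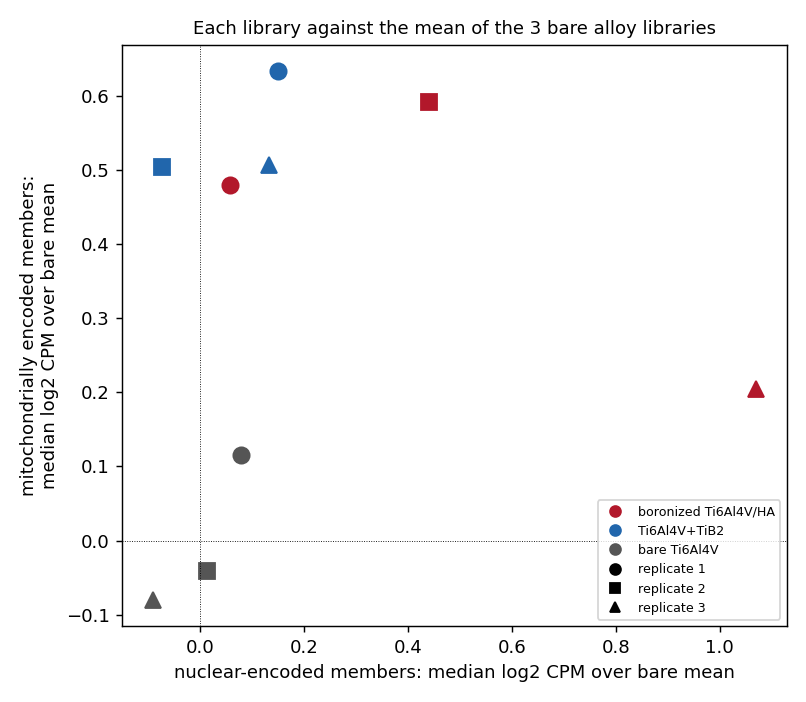
Median log2 CPM of the nuclear members (x axis) and of the mitochondrial members (y axis) in each library, relative to the mean of the 3 bare alloy libraries; colours mark the surface and shapes the replicate number. The TiB2 libraries lie high on the mitochondrial axis (0.50 to 0.63) and near 0 on the nuclear axis (-0.07 to 0.15), while the HA libraries spread from 0.06 to 1.07 on the nuclear axis.

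On TiB2 most of the mitochondrially encoded subunits rose. In TiB2 against bare alloy, edgeR's quasi-likelihood test called 12 of the 13 higher at a Benjamini-Hochberg adjusted p under 0.05 and none lower, where 12.9% of the 20152 genes tested were called higher and 12.2% lower. Their median log2 fold change was 0.47 (1.39-fold, range 0.32 to 0.81), against 0.00 over all genes tested. All 13 had every TiB2 library above every bare alloy library in FPKM, a pattern that 22.9% of all genes tested showed (17.2% showed the reverse). In CPM after TMM scaling 12 of the 13 did so and MT-ND3 overlapped. The share of all genes in CPM is not given. DESeq2 also called 12 higher (11.7% of all genes) and none lower (10.6%).

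Complex I holds 7 of these genes, all core subunits. MT-ND4 (GRCh38, chrMT:10760-12137), part of the proton-pumping arm, had the largest difference, with 5719.8, 5253 and 5248 FPKM on TiB2 and 3003, 2943 and 2996 FPKM on bare alloy (log2 fold change 0.81 ± 0.11 SE, 1.75-fold; edgeR adjusted p = 0.000647). The 3 libraries of each surface lay close together and far from those of the other. MT-ND4L, its neighbour on the same transcript, had 5976, 5518 and 5473 FPKM on TiB2 and 3344, 3343 and 3259 FPKM on bare alloy (0.72 ± 0.09; adjusted p = 0.000523). MT-ND2 had 2237, 2151 and 2232 FPKM on TiB2 and 1356, 1354 and 1336 FPKM on bare alloy (0.66 ± 0.09; adjusted p = 0.000776). These 3 subunits of the pumping arm kept their calls when any single library was left out.

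The other complex I genes of the mitochondrial chromosome differed less. MT-ND5 had 2115, 2035 and 1729 FPKM on TiB2 and 1421, 1304 and 1349 FPKM on bare alloy (0.47 ± 0.12; adjusted p = 0.0174), and MT-ND1 had 2009, 1952 and 1897 FPKM on TiB2 and 1522, 1469 and 1384 FPKM on bare alloy (0.37 ± 0.10; adjusted p = 0.0245). MT-ND6, the only subunit gene on the opposite strand, had 1255, 1175 and 1008 FPKM on TiB2 and 894, 739 and 749 FPKM on bare alloy (0.47 ± 0.13; adjusted p = 0.0273). Whether the counting used strand is not given in the sources used here. Reads of MT-ND6 and of transcripts antisense to it cannot be told apart. MT-ND3, the lowest of the 13 in level, had 589, 519 and 570.1 FPKM on TiB2 and 497, 450.4 and 338 FPKM on bare alloy and was the 1 gene that did not pass (0.32 ± 0.15; adjusted p = 0.161).

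The remaining mitochondrial genes passed as well. MT-CYB, cytochrome b of complex III, had 3723, 3388 and 3624 FPKM on TiB2 and 2214, 2281 and 2263 FPKM on bare alloy (0.62 ± 0.10; adjusted p = 0.00159). Of the 3 catalytic complex IV subunits, MT-CO2 had 6173, 5735 and 6459 FPKM on TiB2 and 4179, 3744 and 3504 FPKM on bare alloy (0.63 ± 0.13; adjusted p = 0.00588). MT-CO3 was at 0.43 ± 0.10 (adjusted p = 0.0138) and MT-CO1, the highest of all members at 9503 ± 72.7 FPKM on TiB2 and 7034 ± 55.7 FPKM on bare alloy (SD, n = 3 each), at 0.38 ± 0.11 (adjusted p = 0.0346). In complex V, MT-ATP8 had 7503, 6501 and 7370.3 FPKM on TiB2 and 4518, 4978 and 4519 FPKM on bare alloy (0.56 ± 0.09; adjusted p = 0.00248), and MT-ATP6 was at 0.45 ± 0.10 (adjusted p = 0.0115). The number called depended on single libraries and on the fit. It was 7 without bare alloy replicate 3 (9.06% of all genes called higher) and 13 without bare alloy replicate 1, the library rich in ribosomal RNA (10.1%). It was 4 when all 9 libraries, with the more variable HA libraries, shared 1 estimate of spread (5.22%). With a term that sets bare alloy replicate 1 and the HA libraries apart from the rest it was 3, at a median of 0.59 (2.92%). That fit also used all 9 libraries and 1 estimate of spread, so its count cannot be put down to the term alone.

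**Figure D2:**
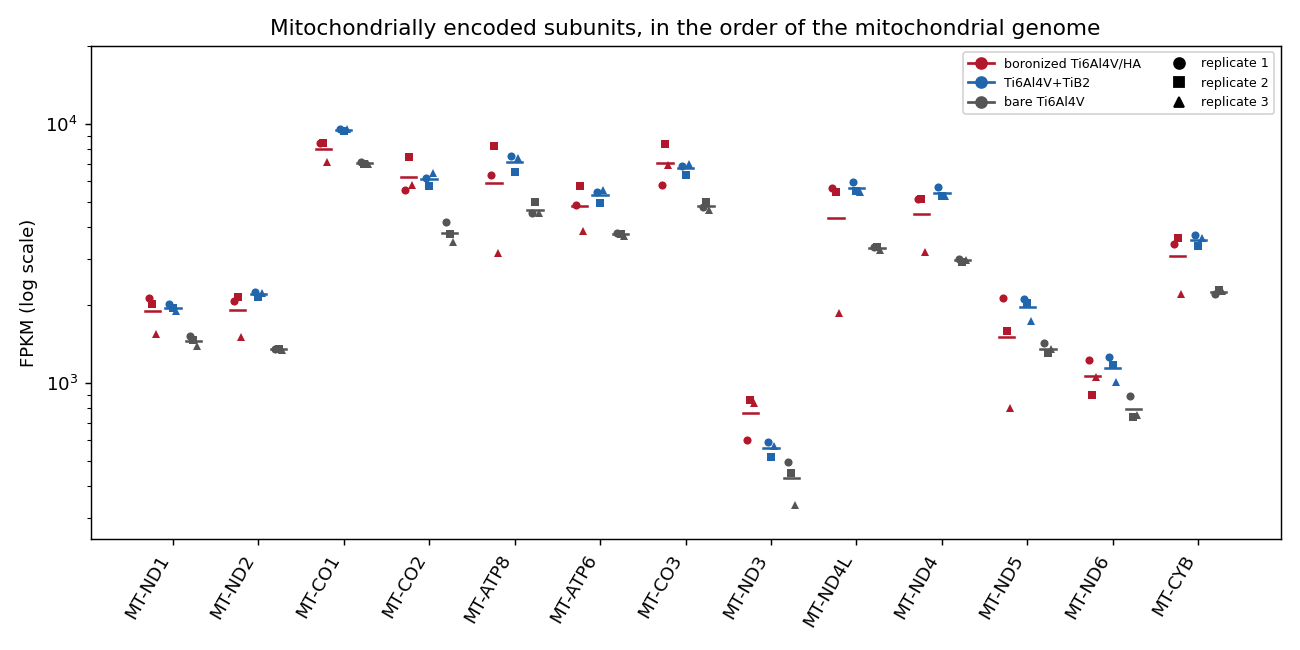
Deposited FPKM (log axis) of the 13 mitochondrial subunit genes in the order of the mitochondrial genome, for each library (points; shape gives the replicate number) with the mean of 3 (line). TiB2 points lie above bare alloy points for every gene, and the triangle of HA replicate 3 drops well below the bare alloy points for MT-ATP8, MT-ND4L and MT-ND5.

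On the HA coating the mitochondrial genes lay above their bare alloy level in the median but spread between libraries. In HA against bare alloy edgeR called none of the 13 (in this comparison 5.02% of the 20117 genes tested were called higher and 4.88% lower), 5 had an unadjusted p under 0.05, all higher (of all genes 14.1% did so as higher and 13.1% as lower), and DESeq2 called 5 higher (9.43% of all genes) and none lower (7.89%). The median log2 fold change was 0.39, against 0.02 over all genes tested. MT-CO2 had 5539, 7457 and 5804 FPKM on HA and 4179, 3744 and 3504 FPKM on bare alloy (0.69 ± 0.21; edgeR adjusted p = 0.0744), with no overlap between the groups. MT-ND3 had 600.0, 858 and 836 FPKM on HA and 497, 450.4 and 338 FPKM on bare alloy (0.81 ± 0.24; adjusted p = 0.0628), again without overlap. MT-ND5, by contrast, had 2122, 1589 and 802 FPKM on HA and 1421, 1304 and 1349 FPKM on bare alloy (0.10 ± 0.30; adjusted p = 0.867), so that HA replicates 1 and 3 lay on opposite sides of the bare alloy libraries.

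The other mitochondrial genes fell between these patterns. MT-CO3 had 5801, 8347 and 6956 FPKM on HA and 4774, 5003 and 4663 FPKM on bare alloy (0.52 ± 0.21; edgeR adjusted p = 0.148), and MT-ND2 had 2075, 2143 and 1506 FPKM on HA and 1356, 1354 and 1336 FPKM on bare alloy (0.47 ± 0.19; adjusted p = 0.148). For both, all HA libraries lay above all bare alloy libraries. MT-ND4 had 5151, 5119 and 3201 FPKM on HA and 3003, 2943 and 2996 FPKM on bare alloy (0.55 ± 0.22; adjusted p = 0.143), with replicate 3 close to the bare alloy level. MT-ND4L had 5645, 5478 and 1865 FPKM on HA and 3344, 3343 and 3259 FPKM on bare alloy (0.33 ± 0.34; adjusted p = 0.569). MT-ATP8 had 6364, 8204 and 3177 FPKM on HA and 4518, 4978 and 4519 FPKM on bare alloy (0.29 ± 0.28; adjusted p = 0.543). Both short genes were high in HA replicates 1 and 2 and lowest of all libraries in HA replicate 3. MT-CO1 stood at 0.15 ± 0.20, MT-ATP6 at 0.33 ± 0.20, MT-ND1 at 0.34 ± 0.19, MT-ND6 at 0.39 ± 0.21 and MT-CYB at 0.42 ± 0.21 in log2 fold change, and none of these passed.

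In 4 of 7 ratios computed among mitochondrial genes, which do not depend on library size, HA replicate 3 differed from the other 8 libraries. MT-ATP8 stood at 0.821 times the FPKM of MT-ATP6 in HA replicate 3 and at 1.19 to 1.42 times in the other libraries. MT-ND4L stood at 0.582 times MT-ND4 in HA replicate 3 and at 1.04 to 1.14 times elsewhere. MT-ND5 stood at 0.113 times MT-CO1 in that library and at 0.181 to 0.252 times elsewhere, and MT-ND6 at 1.32 times MT-ND5 against 0.555 to 0.629 times. In the other 3 ratios HA replicate 3 lay near HA replicate 2: MT-CO2 stood at 0.818 and 0.885 times MT-CO1 in HA replicates 3 and 2, MT-CO3 at 0.980 and 0.991 times and MT-ND3 at 0.118 and 0.102 times. The pairs MT-ATP8 with MT-ATP6 and MT-ND4L with MT-ND4 are each read from 1 messenger RNA, and their reading frames share bases, so a read there belongs to both genes. The shared stretch of MT-ATP8 and MT-ATP6 is shown because it shows how much of the short gene cannot be told apart: 46 bases at chrMT:8527-8572, forward strand, 22.2% of MT-ATP8 and 6.75% of MT-ATP6 (from the GENCODE transcripts of GRCh38).
MT-ATP8 and MT-ATP6 shared bases: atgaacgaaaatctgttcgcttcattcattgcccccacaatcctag
Without HA replicate 3 the median of the 13 for HA against bare alloy was 0.56, and 1 gene was called (4.5% of all genes called higher). Without HA replicate 1 it was 0.35, and 3 were called (10.8% of all genes). Under an offset for the trend with length and GC content, fitted without the mitochondrial rows, it was 0.22.

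In the nuclear genome, TiB2 against bare alloy gave a small set of rises scattered over all 5 complexes. Of 81 nuclear members 79 passed the low-count filter. edgeR called 11 higher (beside 12.9% of all genes called higher) and 1 lower (beside 12.2% lower), and 67 did not pass. The share called higher was near that of all genes, and without bare alloy replicate 3 the median was -0.01. With all libraries the median log2 fold change was 0.07, and per complex it ran from -0.03 (complex IV) and 0.00 (complex I) to 0.12 (V), 0.16 (III) and 0.18 (II). DESeq2 called 12 higher (11.7% of all genes) and 3 lower (10.6%).

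Complex III supplied 3 of the 11. UQCRC2 (chr16:21953288-21973957), a core protein of the complex, had 50.8, 47.4 and 47.9 FPKM on TiB2 and 34.2, 40.7 and 37.6 FPKM on bare alloy (0.33 ± 0.07; 1.26-fold; edgeR adjusted p = 0.00697). UQCRFS1 (chr19:29205320-29213151), the iron-sulphur protein of Rieske that hands electrons to cytochrome c1, had 27.1, 22.9 and 23.9 FPKM on TiB2 and 11.6, 18.57 and 18.04 FPKM on bare alloy (0.58 ± 0.14; 1.49-fold; adjusted p = 0.0125). In FPKM bare alloy replicate 1 was the lowest library for both. In log2 CPM over the bare alloy mean this held for UQCRFS1 (-0.333) only. For UQCRC2 bare alloy replicate 3 was lowest there (-0.046, against -0.027 in replicate 1). UQCRC1 (chr3:48599002-48610976), the other core protein, had 30.7, 28.1 and 28.7 FPKM on TiB2 and 22.5, 22.3 and 25.2 FPKM on bare alloy (0.27 ± 0.08; adjusted p = 0.0277).

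Complexes IV and II supplied 1 each. COX5A (chr15:74919791-74938083), a matrix-facing subunit of cytochrome c oxidase, had 40.6, 33.6 and 33.8 FPKM on TiB2 and 18.4, 26.5 and 25.6 FPKM on bare alloy (0.57 ± 0.12; 1.49-fold; edgeR adjusted p = 0.00733). SDHA (chr5:218303-256682), the flavoprotein that oxidises succinate, had 28.2, 27.3 and 24.7 FPKM on TiB2 and 20.04, 20.5 and 20.9 FPKM on bare alloy (0.33 ± 0.08; adjusted p = 0.0104). The groups did not overlap for either gene. SDHA has near-identical pseudogene copies, and no source used here says how reads that map to several places were counted, which leaves its level uncertain.

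Complex I supplied 3 rises and the only fall. NDUFS8, a core subunit that holds iron-sulphur clusters, had 8.75, 8.09 and 8.81 FPKM on TiB2 and 6.28, 5.90 and 7.10 FPKM on bare alloy (0.36 ± 0.10; edgeR adjusted p = 0.0221). Of the accessory subunits, NDUFA7 rose 1.32-fold (adjusted p = 0.0134) and NDUFA10 rose 1.18-fold (adjusted p = 0.0191). NDUFA11, an accessory subunit of the membrane arm, had 4.16, 3.78 and 4.48 FPKM on TiB2 and 5.43, 4.97 and 5.27 FPKM on bare alloy and fell (-0.39 ± 0.11; adjusted p = 0.0273). All 7 nuclear core subunits had log2 fold changes above 0 (median 0.20), while 11 of the 29 accessory subunits did (median -0.02). This split of complex I is given as a description, without a test.

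In complex V, ATP5F1B (chr12:56638175-56645984), the catalytic beta subunit and the nuclear member with the highest level, had 275, 257 and 237 FPKM on TiB2 and 195, 211 and 217 FPKM on bare alloy (0.26 ± 0.08; edgeR adjusted p = 0.0415). ATP5MC1, 1 of 3 genes for the same membrane-ring protein, rose 1.27-fold (adjusted p = 0.0327), and ATP5PB, a subunit of the peripheral stalk, rose 1.198-fold (adjusted p = 0.0472). The other genes for the ring protein, ATP5MC2 (0.05 ± 0.10) and ATP5MC3 (0.02 ± 0.09), did not pass (adjusted p = 0.797 and 0.895). With 1 library left out the number of nuclear members called was 5 without TiB2 replicate 1 (9.24% of all genes called higher) or bare alloy replicate 3 (9.06%), 7 without TiB2 replicate 3 (9.68%) or bare alloy replicate 1 (10.1%), and 12 without TiB2 replicate 2 (9.97%). Of the 12, UQCRC2 and COX5A were called in all 6 of these fits. None was called with all 9 libraries in 1 fit, either without or with the term for bare alloy replicate 1 and the HA libraries. Under the length and GC offset 20 were called (17 higher, beside 15.1% of all genes, and 3 lower, beside 13%).

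**Figure D3:**
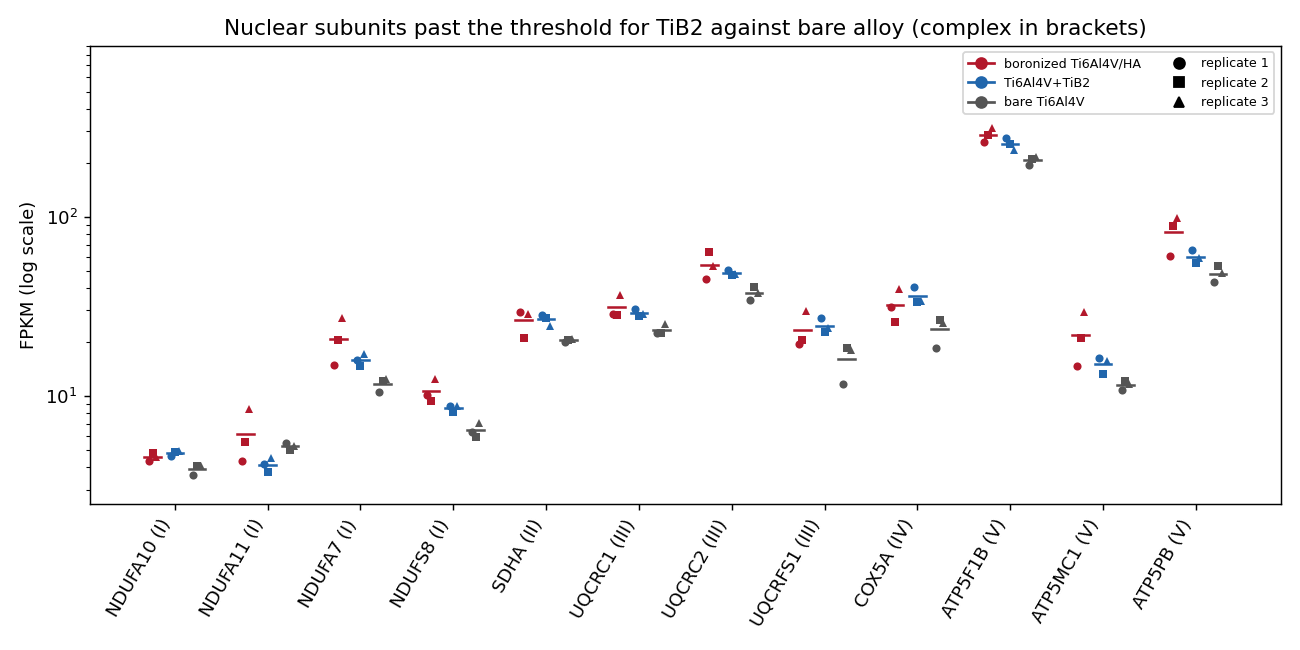
Deposited FPKM (log axis) of the 12 nuclear members past the threshold in TiB2 against bare alloy, in each library (points; shape gives the replicate number) with the mean of 3 (line). For 11 genes the TiB2 points lie above the bare alloy points and for NDUFA11 below them, and the highest HA point is replicate 3 for most genes.

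Promoters of these genes are shown because nuclear subunit genes are textbook targets of NRF1, of ETS-type factors such as GABPA, and of YY1. RefSeq (GRCh38.p14) held a promoter window of 300 bases for 65 of the 81 nuclear members. The letters GCGCANGCG, the core of the NRF1 motif, were found on either strand in 21 of the 65 (32.3%), against 8.05% of all 27305 windows. The ETS letters CCGGAAG were found in 20 (30.8%, against 10.7%) and the YY1 letters AAGATGGCG in 8 (12.3%, against 1.85%). Matches of different motifs did not overlap, though some matches of 1 motif overlapped each other, as NRF1 core matches did in ATP5F1C, NDUFA8, NDUFB4 and SDHD. Among the members called on TiB2, SDHA, UQCRC1, UQCRFS1 and NDUFA11 held the NRF1 letters and UQCRC1 and NDUFA7 the YY1 letters. UQCRC2, COX5A, NDUFS8, NDUFA10, ATP5MC1 and ATP5PB, which also rose, held no match of any of these motifs. ATP5F1B was not among the members with a window, and no called member with a window held the ETS letters. Members that rose and the member that fell both held the NRF1 letters, and a match is a description of the letters only. SDHA held 4 NRF1 core matches, which began at -166, -117, -68 and -19 from the annotated start. The windows of SDHA (chr5:218070-218369, forward strand), UQCRC1 (chr3:48609597-48609896, reverse strand) and UQCRFS1 (chr19:29213102-29213401, reverse strand) follow in the direction of the gene, with capitals for the NRF1 core, in either orientation, and the YY1 letters.
SDHA promoter: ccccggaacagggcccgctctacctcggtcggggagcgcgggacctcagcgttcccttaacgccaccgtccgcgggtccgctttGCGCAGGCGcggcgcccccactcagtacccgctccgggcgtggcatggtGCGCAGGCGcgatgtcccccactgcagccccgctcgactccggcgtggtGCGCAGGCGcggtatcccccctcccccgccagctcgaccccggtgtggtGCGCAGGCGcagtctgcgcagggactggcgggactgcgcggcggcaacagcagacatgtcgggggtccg
UQCRC1 promoter: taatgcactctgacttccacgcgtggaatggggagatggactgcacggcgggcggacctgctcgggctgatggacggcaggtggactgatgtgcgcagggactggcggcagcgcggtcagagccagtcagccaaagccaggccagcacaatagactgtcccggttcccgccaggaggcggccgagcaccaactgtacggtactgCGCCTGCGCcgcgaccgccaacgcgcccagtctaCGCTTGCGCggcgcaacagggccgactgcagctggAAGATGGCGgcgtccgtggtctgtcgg
UQCRFS1 promoter: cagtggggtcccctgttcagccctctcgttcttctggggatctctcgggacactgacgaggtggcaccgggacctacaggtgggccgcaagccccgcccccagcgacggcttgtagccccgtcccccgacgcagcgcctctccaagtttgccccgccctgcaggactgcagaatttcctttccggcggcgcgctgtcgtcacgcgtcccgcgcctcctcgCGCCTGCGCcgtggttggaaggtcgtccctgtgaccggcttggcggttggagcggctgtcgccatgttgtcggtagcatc
In UQCRC1 the NRF1 matches began at -46 and -12 and the YY1 match at 24, inside the transcribed part. In UQCRFS1 the NRF1 match began at -30. Positions count from the RefSeq start. The gene span given above for UQCRC1 begins further upstream and holds the whole window.

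On the HA coating nearly all nuclear members lay above their bare alloy level, without any passing the test. Of the 79 tested, 77 had a log2 fold change above 0, with a median of 0.58 (1.49-fold), where the median of all genes was 0.02 and 50.9% were above 0. edgeR called none (5.02% of all genes were called higher). An unadjusted p under 0.05 was reached by 37, all higher (14.1% of all genes), and DESeq2 called 23, all higher (9.43% of all genes). In FPKM, 39 of the 79 had every HA library above every bare alloy library (17.9% of all genes). None had every HA library below (15.4%). In CPM after TMM scaling 26 of the 79 lay above in this way and none below. The share of all genes in CPM is not given. The medians per complex lay at 0.44 for complex II, 0.53 for I, 0.54 for III, 0.63 for IV and 0.65 for V.

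The size of this difference rested on HA replicate 3. Without it the nuclear median was 0.28 and none was called. Without HA replicate 1 the median was 0.79 and 45 were called, all higher, where 10.8% of all genes were called higher. In the other leave-one-out fits no nuclear member was called and the median ran from 0.50 to 0.64. With the length and GC offset the median was 0.51 and 7 were called (8.12% of all genes higher), and with the term that compares HA with bare alloy replicate 1 alone it was 0.49 with none called. The difference was present at every gene length: members under 2000 bases had a median of 0.62, where all genes of that length had 0.13, and members of 4000 bases or more had 0.51, where all genes had -0.04. The part that length, GC content or RNA quality has in the level of HA replicate 3 was not tested.

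**Figure D4:**
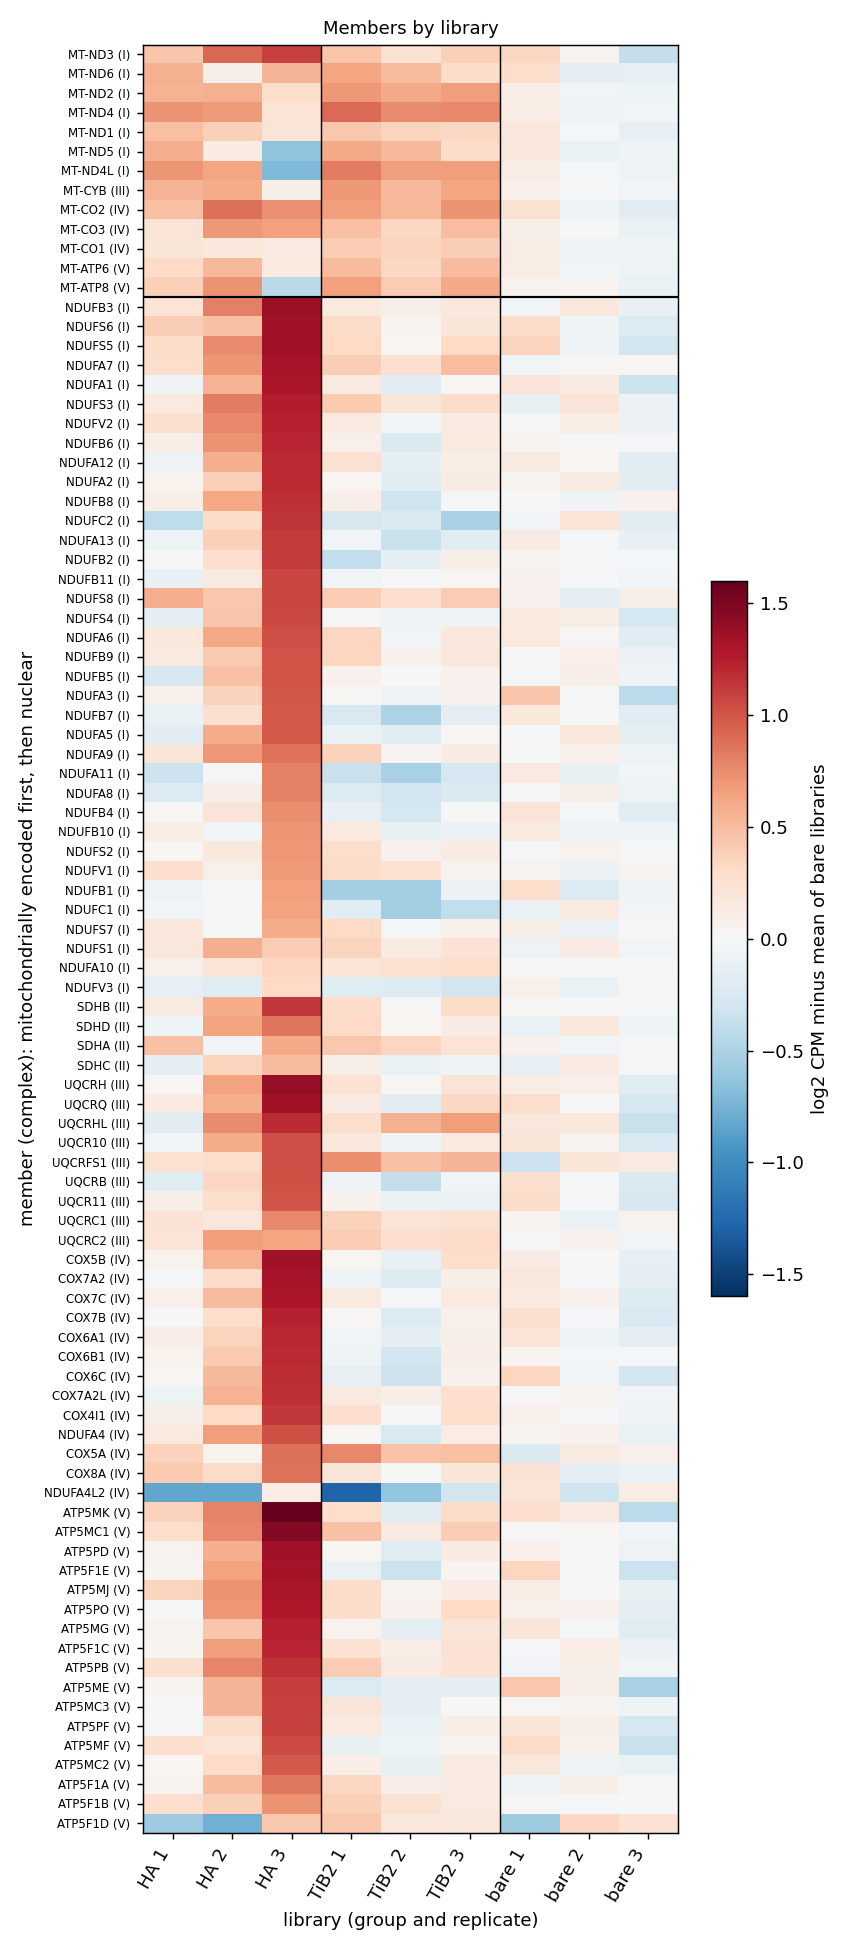
Log2 CPM of each member (rows; complex in brackets, mitochondrial genes above the line) minus the mean of the bare alloy libraries, in each of the 9 libraries (columns); red is above and blue below the bare alloy mean. The column of HA replicate 3 is red for all 79 nuclear members and mixed for the mitochondrial genes.

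NDUFS8 of complex I came nearest to the threshold, with 10.1, 9.32 and 12.5 FPKM on HA and 6.28, 5.90 and 7.10 FPKM on bare alloy (0.71 ± 0.19; 1.64-fold; edgeR adjusted p = 0.0506). All 3 HA libraries lay above all bare alloy libraries. NDUFB3, an accessory subunit with the largest difference in complex I, had 7.56, 11.7 and 15.1 FPKM on HA and 5.53, 7.19 and 5.86 FPKM on bare alloy (0.88 ± 0.27; adjusted p = 0.0752). NDUFS5, the highest complex I member, had 97.3, 138 and 178 FPKM on HA and 90.6, 74.5 and 63.9 FPKM on bare alloy (0.83 ± 0.27; adjusted p = 0.0890). The HA values of both span a wide range, and in FPKM the lowest HA library lay just above the bare alloy ones. In log2 CPM over the bare alloy mean, NDUFS5 in HA replicate 1 (0.297) lay below bare alloy replicate 1 (0.361). NDUFV3, an accessory subunit, was the smallest in complex I (0.00 ± 0.18; adjusted p = 0.996).

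In complexes II and III the differences were of the same order. SDHB, the iron-sulphur subunit of succinate dehydrogenase, had 34.1, 47.6 and 59.7 FPKM on HA and 27.8, 30.6 and 29.8 FPKM on bare alloy (0.68 ± 0.23; edgeR adjusted p = 0.0986). SDHC, a membrane anchor and the highest of complex II, had 55.7, 80.8 and 77.0 FPKM on HA and 50.3, 67.2 and 60.7 FPKM on bare alloy (0.25 ± 0.19; adjusted p = 0.441), with overlapping groups. UQCRH, the hinge protein, had 49.1, 77.3 and 113 FPKM on HA and 46.5, 50.4 and 41.9 FPKM on bare alloy (0.78 ± 0.30; adjusted p = 0.134). Its near-identical copy UQCRHL lay at 0.816 to 2.19 FPKM on HA and 0.691 to 1.09 FPKM on bare alloy, and reads of the pair may have been split between them. The smallest difference in complex III was that of UQCRC1 (0.41 ± 0.19; adjusted p = 0.199).

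Complexes IV and V had the highest medians and also the members with values below 0. COX8A, the highest complex IV member, had 92.9, 87.7 and 112 FPKM on HA and 72.7, 62.1 and 64.7 FPKM on bare alloy (0.53 ± 0.19; edgeR adjusted p = 0.116). COX5B, a zinc-binding subunit, had 18.6, 26.9 and 40.3 FPKM on HA and 17.5, 17.5 and 16.2 FPKM on bare alloy (0.74 ± 0.29; adjusted p = 0.138). In FPKM both lay above bare alloy in all 3 HA libraries. In log2 CPM over the bare alloy mean, COX5B in HA replicate 1 (0.061) lay below bare alloy replicate 1 (0.137). ATP5MK, a small membrane subunit of ATP synthase, had the largest difference of all, with 23.7, 32.5 and 52.8 FPKM on HA and 19.6, 19.9 and 13.4 FPKM on bare alloy (1.04 ± 0.33; 2.05-fold; adjusted p = 0.0821). ATP5MC1 stood at 0.92 ± 0.26 (adjusted p = 0.0608) and ATP5F1B at 0.46 ± 0.18 (adjusted p = 0.134).

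The 2 tested members with values below 0 were ATP5F1D and NDUFA4L2. ATP5F1D, the delta subunit of ATP synthase, had 3.58, 3.16 and 6.59 FPKM on HA, 7.29, 6.18 and 6.19 FPKM on TiB2 and 3.22, 6.86 and 6.44 FPKM on bare alloy. HA replicates 1 and 2 and bare alloy replicate 1 were thus low and all other libraries high, and the comparison of HA with bare alloy did not pass (-0.28 ± 0.36; edgeR adjusted p = 0.658). NDUFA4L2, a hypoxia-induced relative of the complex IV subunit NDUFA4, had 1.22, 1.24 and 2.24 FPKM on HA, 0.832, 1.43 and 1.86 FPKM on TiB2 and 2.40, 1.80 and 2.51 FPKM on bare alloy. It did not pass on HA (-0.51 ± 0.32; adjusted p = 0.338) or on TiB2 (-0.76 ± 0.28; adjusted p = 0.0778 with edgeR and 0.0282 with DESeq2). With 1 library left out the edgeR value on TiB2 ran from an adjusted p of 0.0367, without TiB2 replicate 3, to 0.189. NDUFA4 itself lay higher at 13.04, 19.0 and 20.9 FPKM on HA, 11.5, 9.81 and 12.6 FPKM on TiB2 and 10.7, 12.1 and 10.8 FPKM on bare alloy.

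**Figure D5:**
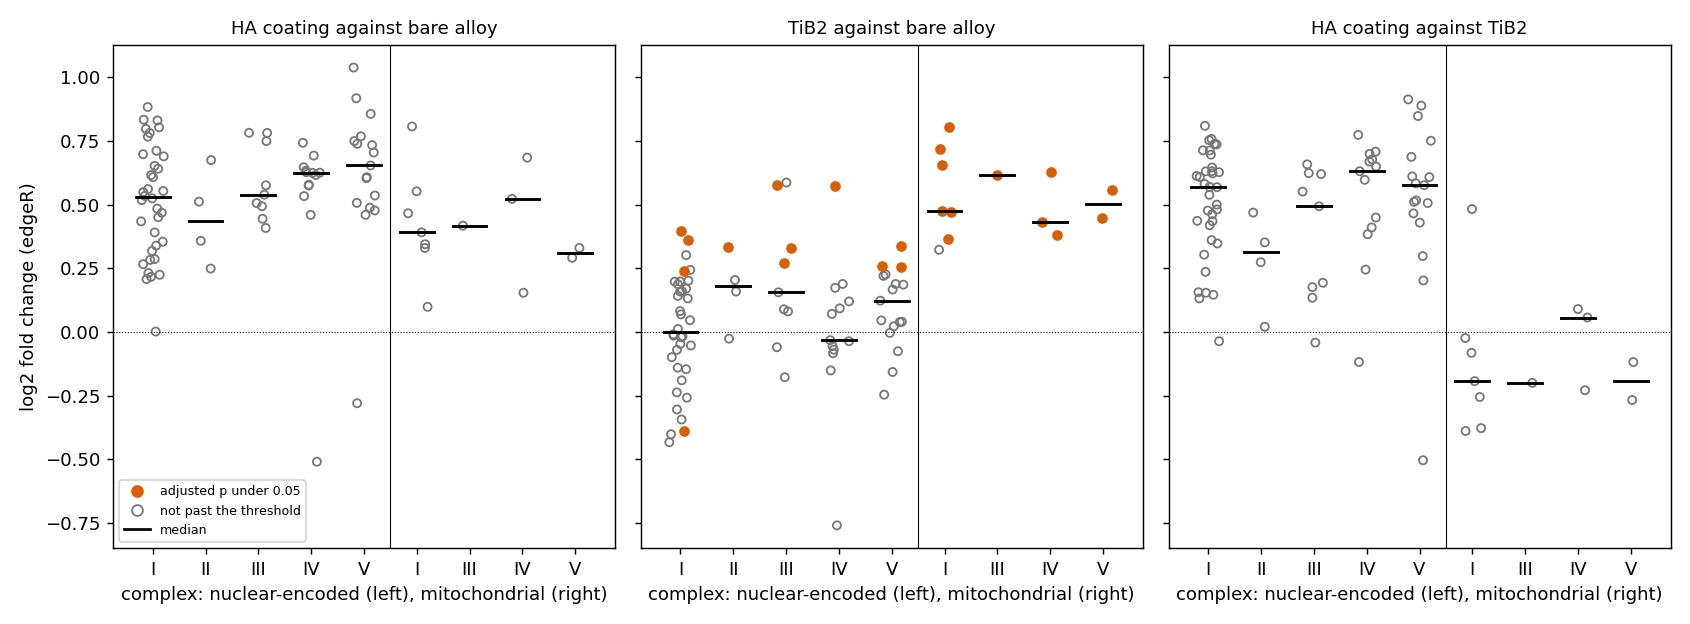
Log2 fold changes (edgeR) of the members by complex, nuclear genes left and mitochondrial genes right of the vertical line, in the 3 comparisons; filled points passed an adjusted p under 0.05, open points did not, and bars are medians. Of these 3 comparisons only TiB2 against bare alloy has filled points, and there the mitochondrial medians lie at 0.43 to 0.62 and the nuclear medians at -0.03 to 0.18; in HA against bare alloy nuclear medians lie at 0.44 to 0.65.

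Set directly against each other, the 2 coatings had medians above 0 for the nuclear members and below 0 over the 13 mitochondrial members, without any call. In HA against TiB2 edgeR called no member (0.179% of the 20086 genes tested were called higher and 0.453% lower), and DESeq2 called none (0.699% of all genes higher and 1.27% lower). For the nuclear members the median log2 fold change was 0.55, with 75 of 79 above 0 and 33 at an unadjusted p under 0.05, all higher (of all genes 6.4% did so as higher and 5.64% as lower). The smallest adjusted p among them was 0.296, for ATP5F1E, the epsilon subunit of ATP synthase, which had 5.75, 8.94 and 12.4 FPKM on HA, 5.06, 4.37 and 5.71 FPKM on TiB2 and 6.32, 5.497 and 4.35 FPKM on bare alloy. Without HA replicate 3 the nuclear median was 0.20, and without HA replicate 1 it was 0.75, with 23 called higher (2.67% of all genes). For the mitochondrial members the median was -0.19, with that of complex IV at 0.06, and 1 gene had an unadjusted p under 0.05, MT-ND3 (0.48 ± 0.20; edgeR adjusted p = 0.388). MT-ND2, MT-ND4 and MT-CO1 were lower in FPKM in every HA library than in every TiB2 library (9.87% of all genes showed this), and MT-ND3 higher in every HA library (8.58%). All 3 comparisons share libraries, so they are not independent of each other.

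Members that are made in a few tissues added little here. COX7A1, the heart and muscle form of subunit 7A, had 0 to 4 counts per library. COX6B2, the testis form of subunit 6B, had 0 to 8 counts, and neither was tested. The naming rule found no row for COX4I2, COX6A2 or COX8C. Their widespread partners were well measured. COX4I1 had 24.5, 29.1 and 44.3 FPKM on HA, 26.9, 23.0 and 27.6 FPKM on TiB2 and 21.6, 22.1 and 21.8 FPKM on bare alloy, with no call against bare alloy (edgeR adjusted p = 0.181 and 0.151). Of the 3 genes for the ring protein of ATP synthase, ATP5MC2 was the highest per length at 28.6 ± 7.8 FPKM on HA, 21.9 ± 2.0 FPKM on TiB2 and 20.4 ± 1.0 FPKM on bare alloy (SD, n = 3 each). The antisense and divergent rows lay under 0.85 FPKM in every library. NDUFV1-DT and UQCRB-AS1 were too low for the edgeR test, and none of the other 4 passed it, though DESeq2 called UQCRFS1-DT lower on TiB2 than on bare alloy (adjusted p = 0.0300, against 0.0605 with edgeR). Reads of such rows and of the subunit genes on the other strand cannot be told apart here. The read-through row NDUFC2-KCTD14, which spans the subunit gene NDUFC2, ranged over 3.67 to 10.5 FPKM on HA, 1.71 to 10.1 FPKM on TiB2 and 2.47 to 10.8 FPKM on bare alloy, and the level of NDUFC2 is uncertain to that extent.

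Genes that build, feed and regulate the complexes were followed in lists of their own. On TiB2 (12.9% of all genes called higher, 12.2% lower) 3 of 4 electron carriers rose, among them ETFA and ETFDH of the route from fatty acid oxidation and cytochrome c, CYCS (1.42-fold; 16.9, 14.1 and 15.6 FPKM on TiB2 and 10.1, 12.1 and 9.57 FPKM on bare alloy; edgeR adjusted p = 0.00749). Of 12 enzymes of the tricarboxylic acid cycle 6 rose, none fell and 6 did not pass (median 0.30). MDH2, malate dehydrogenase, rose 1.43-fold (adjusted p = 0.00105), and CS, citrate synthase, rose 1.41-fold (adjusted p = 0.00491). Of 24 genes of mitochondrial transcription and RNA handling 10 rose, 1 fell and 13 did not pass. POLRMT, the mitochondrial RNA polymerase, had 4.41, 4.97 and 4.46 FPKM on TiB2 and 2.70, 3.45 and 3.20 FPKM on bare alloy (0.52 ± 0.10; adjusted p = 0.00400), and LRPPRC, which stabilises mitochondrial messenger RNA, rose 1.27-fold (adjusted p = 0.00545). MTERF2, of the mitochondrial termination factor family, fell (-0.75 ± 0.12; adjusted p = 0.00197).

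Of 78 mitochondrial ribosome proteins 17 rose and 3 fell on TiB2 (median 0.16), beside 12.9% of all genes called higher and 12.2% lower. Of 24 mitochondrial rRNA and tRNA rows 4 rose and none fell (median 0.14), and the counts of these rows and of complex I assembly were not far from the share of all genes called higher. Of the assembly factors, 2 of 15 for complex I rose (ECSIT and NDUFAF1), none of 4 for complex II or 6 for complex III was called, and 5 of 23 rose and 2 fell for complex IV. In the list of 4 genes of ATP synthase assembly and inhibition TMEM70 rose. It had 22.6, 19.8 and 19.8 FPKM on TiB2 and 11.3, 14.0 and 14.3 FPKM on bare alloy (0.60 ± 0.09; edgeR adjusted p = 0.00123). COX20, a chaperone of the complex IV subunit encoded by MT-CO2, fell 3.11-fold (adjusted p = 0.00222). Of 9 regulators of respiratory genes 2 rose, none fell and the others did not pass (median 0.11). Among those that did not pass, PPARGC1A (-1.43 ± 0.49; edgeR adjusted p = 0.0630) and NFE2L1 (-0.18 ± 0.07; adjusted p = 0.0965) lay below 0. PPARGC1A stayed at or under 0.0570 FPKM in every library. ESRRA, the nuclear receptor ERR alpha, had 9.83, 8.68 and 7.76 FPKM on TiB2 and 4.13, 5.38 and 6.19 FPKM on bare alloy (0.70 ± 0.13; adjusted p = 0.00431), and PPARGC1B, a coactivator that binds it, had 0.533, 0.515 and 0.315 FPKM on TiB2 and 0.206, 0.194 and 0.216 FPKM on bare alloy (1.08 ± 0.23; adjusted p = 0.00745).

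On the HA coating (5.02% of all genes called higher, 4.88% lower) fewer genes of these lists passed and none fell. TMEM70 had 24.3, 27.5 and 28.1 FPKM on HA and 11.3, 14.0 and 14.3 FPKM on bare alloy and rose 1.99-fold (edgeR adjusted p = 0.00662). CYCS had 15.6, 25.7 and 29.1 FPKM on HA and 10.1, 12.1 and 9.57 FPKM on bare alloy and rose 2.203-fold (adjusted p = 0.0261), and ESRRA rose 1.604-fold (adjusted p = 0.0389). For these 3 genes every HA library lay above every bare alloy library. TFAM, which packages mitochondrial DNA and starts its transcription, had 6.85, 10.6 and 8.54 FPKM on HA and 4.14, 5.72 and 5.27 FPKM on bare alloy (0.76 ± 0.19; adjusted p = 0.0398) and was 1 of 3 of the 24 transcription and RNA genes called, beside PRORP and FASTKD1. The tricarboxylic acid cycle had 3 of 12 (IDH3A, MDH2 and SUCLA2), the mitochondrial ribosome 3 of 78 (MRPL3, MRPL15 and MRPL14), complex I assembly 2 of 15 (NDUFAF6 and NDUFAF1), complex IV assembly 3 of 23 (CMC2, COA1 and SCO1) and the mitochondrial rRNA and tRNA rows 3 of 24 (MT-TI, MT-TV and MT-TF). No gene of complex II or III assembly was called. The list medians lay between 0.09 and 0.51, where that of all genes was 0.02.

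In HA against TiB2 a single gene of these lists was called, NDUFAF8, a complex I assembly factor, which fell (-2.46 ± 0.41; edgeR adjusted p = 0.0312). It had 1.05, 0.468 and 1.63 FPKM on HA, 6.29, 6.36 and 5.60 FPKM on TiB2 and 0.590, 5.36 and 4.60 FPKM on bare alloy. Bare alloy replicate 1 was as low as the HA libraries, the same division of libraries as for the T cell markers, so its call cannot be told apart from that division.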

How the data were processed

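RNA of 9 MG-63 libraries, 3 for each surface, was sequenced. The deposited table gives a raw count per gene. Per the submitters' processing notes, the build was GRCh38 and the tools included featureCounts 2.0.1, HISAT2 2.2.1, cutadapt 2.10, limma and StringTie 2.1.4, with no step given for each. The table also gives FPKM values computed by the authors. Neither the strand setting of the counting nor its handling of multi-mapping reads is stated in these sources.

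Counts were tested with edgeR 4.0.16 (R 4.3.3; filterByExpr, TMM, quasi-likelihood) over all genes, using the 6 libraries of each comparison, with Benjamini-Hochberg adjustment at 0.05. The SE is the absolute log2 fold change over the square root of F. The procedure was tested on simulated data. Alternatives were DESeq2 1.42.0, limma 3.58.1 on log2(FPKM + 1) and log2(FPKM + 0.1), other filters and scalings, a length and GC offset (mgcv 1.9.3; GC content for 94.7% of rows), other fits, and each library left out. The length and GC trend was fitted without mitochondrial and ribosomal RNA rows, and its offset was applied to the mitochondrial genes as well. For a gene without reads the upper limit was 0.0414 to 0.0513 CPM (3 counts), for counting error only.

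Named were all mitochondrial genes, nuclear members called in any comparison, per complex the highest member and the largest positive and negative difference for HA against bare alloy, and tissue forms. List genes named were up to 4 with the smallest p. Members and lists were chosen with earlier results of these data known. Pseudogene rows (57) were left out.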

Additional observations from a re-analysis of the deposited data

How the results depend on the processing

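Of the recomputed counts of calls 73 stayed within 1.5 times the main count and 26 did not, and of the recomputed medians 531 moved by less than the spread between libraries and 15 by more. No called value changed sign, but 15 recomputed medians did, with main values of -0.03 to 0.12. They were 4 of mitochondrial complex IV for HA against TiB2 and, for TiB2 against bare alloy, 1 of all nuclear members, 4 of nuclear complex I, 5 of nuclear complex IV and 1 of nuclear complex V. The percentages in brackets are of all genes called higher in the same fit. For HA against bare alloy, nuclear calls (0) became 1 with DESeq2 size factors (5.06%), a mean of at least 5 FPKM (7.47%) or limma with a pseudocount of 1 (4.62%) or 0.1 (4.81%), 7 with the length and GC offset (8.12%), 17 with all 9 libraries in 1 fit (9.4%) and 23 with DESeq2 (9.43%), and ranged over 0 to 45 with 1 library left out (1.31% to 10.8%). Mitochondrial calls (0) became 4 with all 9 libraries and 5 with DESeq2, and ranged over 0 to 3. The mitochondrial median (0.39) was 0.22 under the length and GC offset and 0.32 to 0.56 with 1 library left out. That of its complex I genes was 0.22 under that offset, 0.21 with the library set term and 0.31 to 0.57 with 1 left out.

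For TiB2 against bare alloy, nuclear calls (12) became 20 under the offset (15.1%, and 13% lower). They became 0 with all 9 libraries (5.22%) or the library set term (2.92%), whose fit also used all 9 libraries. With 1 library left out they ranged over 5 to 12 (9.06% to 10.1%). Mitochondrial calls (12) became 4 with all 9 libraries, 3 with the library set term and 7 with limma on log2(FPKM + 0.1) (12.2%), and ranged over 7 to 13. The mitochondrial median (0.47) was 0.59 with the library set term and 0.42 to 0.58 with 1 left out, and that of its complex I genes 0.63 and 0.40 to 0.62. The ratio of mean mitochondrial shares (1.48) was 1.398 with the ribosomal genes of the mitochondrion added.

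For HA against TiB2, nuclear calls ranged over 0 to 23 and mitochondrial calls over 0 to 1 with 1 library left out (0.0526% to 2.67%), and the nuclear complex IV median over 0.19 to 0.85. With the library set term the mitochondrial median was -0.36, against -0.19 without it, that of complex I -0.43, against -0.19, and that of complex IV -0.31, against 0.06, a change of sign. Under the offset, whose trend was fitted without mitochondrial rows, mitochondrial complex I stood at -0.42 and mitochondrial complex V at -0.49. In CPM 0 mitochondrial members were higher without overlap. The causes of these shifts were not tested.

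Deviations of same-numbered libraries had correlations of -0.134 to 0.0961, and those of differently numbered libraries -0.142 to 0.215. No pairing by replicate number was thus seen, but with 3 libraries a group this check cannot exclude one. With the replicate block 6 nuclear and 11 mitochondrial members were called for TiB2 against bare alloy (9.09% of all genes higher) and 0 of either in the comparisons of HA.

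The limits are 3 libraries a group of unstated origin, bare alloy replicate 1 and HA replicates 2 and 3 standing apart, and unknown strand use.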

Other observations

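Among the pseudogene rows left out, UQCRFS1P1, a copy of the complex III gene UQCRFS1, had 59, 30 and 38 counts in the HA libraries, 191, 169 and 164 counts in the TiB2 libraries and 18, 158 and 111 counts in the bare alloy libraries. Its log2 fold change for HA against TiB2 was -2.05 (edgeR adjusted p = 0.0299). It was chosen after its values were seen. Bare alloy replicate 1 lay with the HA libraries, as for NDUFAF8 and the T cell markers, and the origin of that division was not tested.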
